A study of Mus musculus with 2 samples.

Results

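Complex I genes were examined as the 38 genes whose name on the array begins with Nduf, read by 56 of the 41174 probes outside the control classes (22033 gene symbols in all). They comprise 36 genes listed as subunits (13 Ndufa genes, Ndufab1, 10 Ndufb, 2 Ndufc, 8 Ndufs and 2 Ndufv) and the assembly factors Ndufaf1 and Ndufaf2, the latter printed on the array under its older name Ndufa12l. The samples were gastrocnemius muscles of male C57BL/6 mice. In the denervated group the muscle had lost its nerve at 7 weeks of age, and it was taken after 14 days, at 9 weeks. The control group had the same strain, sex and age, and its labels call it both a control and a sham control, so whether these mice were operated on is unclear. Each group was a single pool of RNA from 6 mice, read on 1 array, so no difference has a replicate check or a test. Both arrays lay on 1 slide and came from 1 scan, and the position on the slide cannot be told apart from the group.

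Complex I is the entry point of the mitochondrial respiratory chain. It takes electrons from NADH, passes them along iron-sulfur clusters to ubiquinone and pumps protons across the inner membrane. Its matrix arm carries the NADH-binding end and the quinone-binding region, its membrane arm holds the proton channels, and around a core shared with bacteria sit supernumerary subunits that stabilise it. Assembly factors build the arms as separate modules and are absent from the finished enzyme. Muscle relies on it for oxidative ATP production during sustained work.

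Promoter sequences are shown because nearly all of these genes differed in one direction, and because the regulators NRF1, the ERR receptors, GABP and YY1 are known to act on respiratory genes. The 4 sequences below are the 250 bases before the start site in RefSeq (GRCm38.p6), written 5′ to 3′ on the gene's strand, with matches to the NRF1, ERR, GABP and YY1 motifs in capitals. The match in Ndufa8 reads on the opposite strand. Ndufb4 is the member with the most matches, Ndufa8 and Ndufb10 belong to the lowest genes, and Ndufaf2 is the only gene above 0.
Ndufb4, chr16:37654369-37654618, minus strand: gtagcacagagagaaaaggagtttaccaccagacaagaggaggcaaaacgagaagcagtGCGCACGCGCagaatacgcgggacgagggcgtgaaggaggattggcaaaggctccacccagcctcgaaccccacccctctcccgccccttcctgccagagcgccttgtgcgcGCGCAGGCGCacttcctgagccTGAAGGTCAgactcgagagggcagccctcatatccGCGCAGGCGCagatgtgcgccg
Ndufa8, chr2:36049339-36049588, minus strand: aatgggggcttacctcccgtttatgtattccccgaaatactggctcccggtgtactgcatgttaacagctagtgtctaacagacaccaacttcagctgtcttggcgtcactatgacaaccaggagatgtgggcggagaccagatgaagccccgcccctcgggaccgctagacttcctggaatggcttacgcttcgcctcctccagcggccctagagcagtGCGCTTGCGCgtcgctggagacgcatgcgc
Ndufb10, chr17:24724424-24724673, minus strand: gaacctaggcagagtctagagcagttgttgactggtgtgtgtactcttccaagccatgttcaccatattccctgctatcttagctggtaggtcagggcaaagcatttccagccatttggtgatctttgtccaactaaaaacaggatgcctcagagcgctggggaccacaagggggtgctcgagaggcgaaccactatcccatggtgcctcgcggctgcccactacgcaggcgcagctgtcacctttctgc
Ndufaf2, chr13:108158626-108158875, minus strand: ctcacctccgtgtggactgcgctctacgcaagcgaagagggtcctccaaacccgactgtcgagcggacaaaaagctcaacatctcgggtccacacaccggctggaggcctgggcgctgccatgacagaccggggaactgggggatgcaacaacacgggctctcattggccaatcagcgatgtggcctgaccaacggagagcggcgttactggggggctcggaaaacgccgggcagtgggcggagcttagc

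YY1-motif matches lay just after the start site in 5 members. They are shown as windows of at most 25 bases with the match in capitals.
Ndufa9, chr6:126849099-126849123, minus strand: tgtgggagAAGATGGCGgccgccgt
Ndufc1, chr3:51408917-51408941, minus strand: tgcggaacAAGATGGCGccgtccgt
Ndufs4, chr13:114388045-114388067, minus strand: cctacaggAAGATGGCGgcggtc
Ndufs6, chr13:73328433-73328457, minus strand: tcaccggcAAGATGGCGgcggtgct
Ndufs7, chr10:80249465-80249489, plus strand: ccgaggccAAGATGGCGgcgctggc

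All 8 muscle fibre markers were measured, among them the creatine kinase gene Ckm with an intensity of 307386 in control and 251587 in denervated muscle. Their log2 differences had a median of -0.52. All 8 were below 0, against 57.4% of all genes measured on both arrays. The differences ran from -0.72 (Ckm) and -0.70 (Pvalb) to -0.30 (Myh4) and -0.21 (Tnnt3). Unscaled, Myh4 (343722 in control and 377575 in denervated muscle) and Tnnt3 (582258 and 680177) were brighter in the denervated pool. The direction of Myh4 and Tnnt3 is therefore not settled. For the 10 myeloid markers every difference was above 0 (median 1.76). Of the 10, 9 were at least 2-fold higher, against 6.87% of all genes measured on both arrays. Other probes of Csf1r (0.64), Ptprc (0.74) and Fcgr1 (0.77) were above 0 but short of 2-fold. The summed intensity of the 10 was 15865 in control and 66235 in denervated muscle, and none of the markers was at 0. They ran from Cd14 (0.84) and Csf1r (1.33) to Lgals3 (2.56) and Cd68 (3.53). The 6 endothelial markers had a median of -0.65 (summed intensity 24436 and 19713), the 5 adipocyte markers -0.76 (73670 and 74031) and the 5 fibroblast markers 0.15 (146939 and 227345). Endothelial differences ran from Kdr (-1.12) and Emcn (-0.75) to Pecam1 (-0.43) and Tek (-0.34). Those of adipocyte genes ran from Plin1 (-0.95) and Lep (-0.80) to Adipoq (-0.46) and Fabp4 (-0.42). Those of fibroblast genes ran from Clec3b (-1.04) and Col1a1 (0.08) to Pdgfra (0.22) and Col3a1 (0.63). Pecam1, Tek and Fabp4 were also brighter in the denervated pool when unscaled, so their direction is not settled either. The part of these cell types in the complex I results was not tested. In whole muscle, fewer fibres and less of a transcript per fibre cannot be told apart.

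Complex I transcripts were lower in denervated muscle almost throughout. Each gene was read by its brightest measured probe, meaning one well above background and unsaturated on both arrays. Values are log2 of the processed spot intensity minus the array's 75th percentile, and a difference is denervated minus control. All 38 genes were measured, so none depended on passing in one pool only. Of these, 37 were below 0, against 57.4% of the 15655 genes measured on both arrays. At least 2-fold lower were 4 of the 38, against a background of 8.66%, and none was 2-fold higher (background 6.87%). With so few past 2-fold, the group is better described by its median. This was -0.71, and the middle 50% of genes lay between -0.86 and -0.62, while all measured genes had a median of -0.12 and a middle range from -0.53 to 0.31. The SD among members was 0.25, against 0.85 over all genes.

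**Figure D1:**
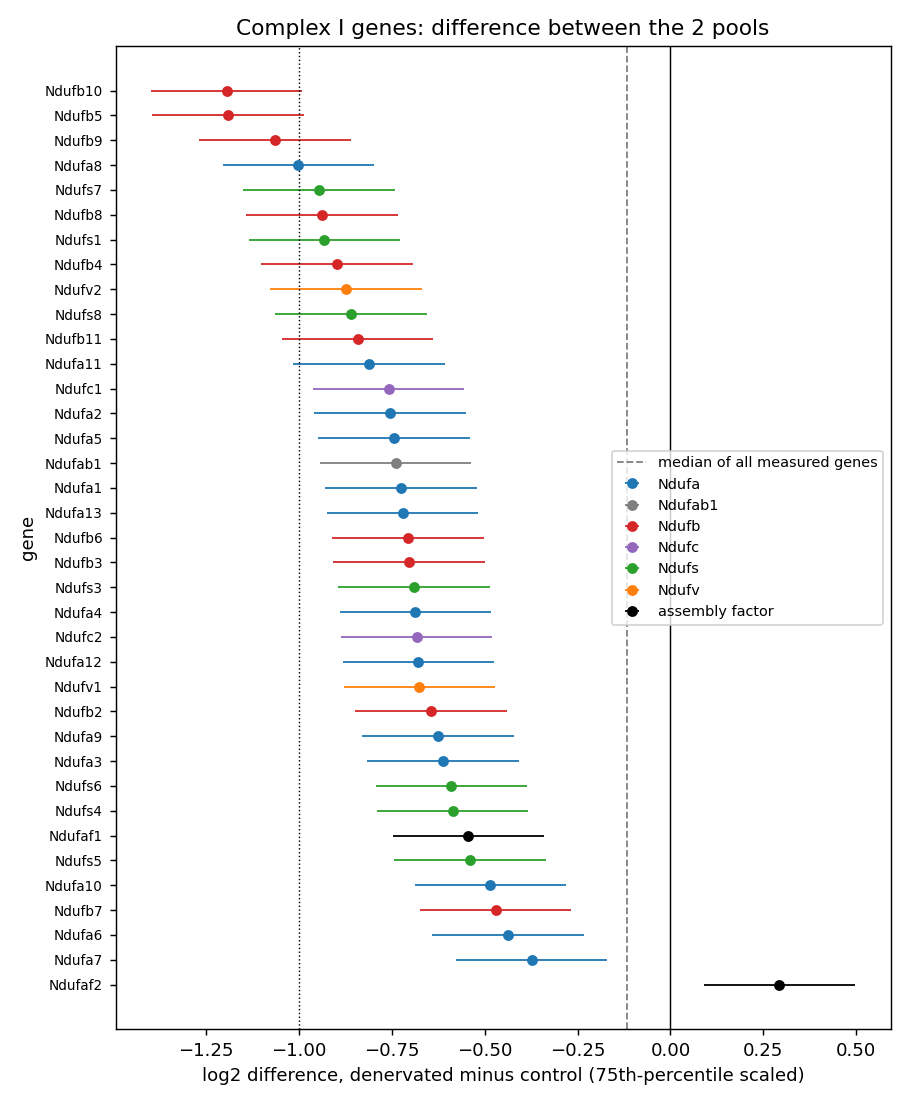
Log2 difference (denervated minus control) of 37 of the 38 complex I genes, coloured by class, with bars for the scanner software's technical error of 0.20. The solid line marks 0, the dotted line 2-fold lower and the dashed line the median of all measured genes at -0.12; all genes drawn but Ndufaf2 lie left of 0.

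The value after ± combines the errors that the scanner software assigned to the spots on either array. It was 0.20 for nearly every member, because a preset relative error dominates bright spots, and it leaves out the spread between mice. With the scaling used here, all 37 lower genes lay more than 1 such error below 0, and 36 more than 2. The error leaves out the choice of scaling, and these counts did not hold with spike-in scaling, described below. The error of a difference between 2 genes is then 0.29, and 26 of the 38 genes lay within 0.20 of the group's median. Most of the ordering among members therefore lies within this preset error. The extreme subunits were picked after ranking: Ndufb10 stood 0.82 below Ndufa7. The error of 0.29 holds for a pair chosen beforehand, so it cannot judge that gap. The SD of the 36 subunits was 0.19, near the preset error of 0.20. Replicated spots of a probe spread less than the preset error, with a median SD of 0.06 for the log2 difference.

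The absolute size depends on scaling. Processed intensities were higher on the denervated array in general (75th percentile of 788 in control and 1063 in denervated muscle). Before scaling, Ndufa7 and Ndufaf2 were brighter in the denervated pool and the other 36 were dimmer. Scaling to the 8 spike-in probes measured on both arrays moved every gene up by 0.39. The members' median then became -0.32 and that of all genes 0.27, with 36 members below 0, against 33.1% of all genes. Most members were then no longer more than 2 errors of 0.20 below 0. Ndufb10 (-0.81) and Ndufb5 (-0.80) were still the lowest. Ndufa6 (-0.05), Ndufb7 (-0.08) and Ndufa10 (-0.10) were among those closer to 0 than the error. The distance of the members' median from that of all genes was -0.59 both ways, and ran from -0.64 to -0.47 over all the settings tried.

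**Figure D2:**
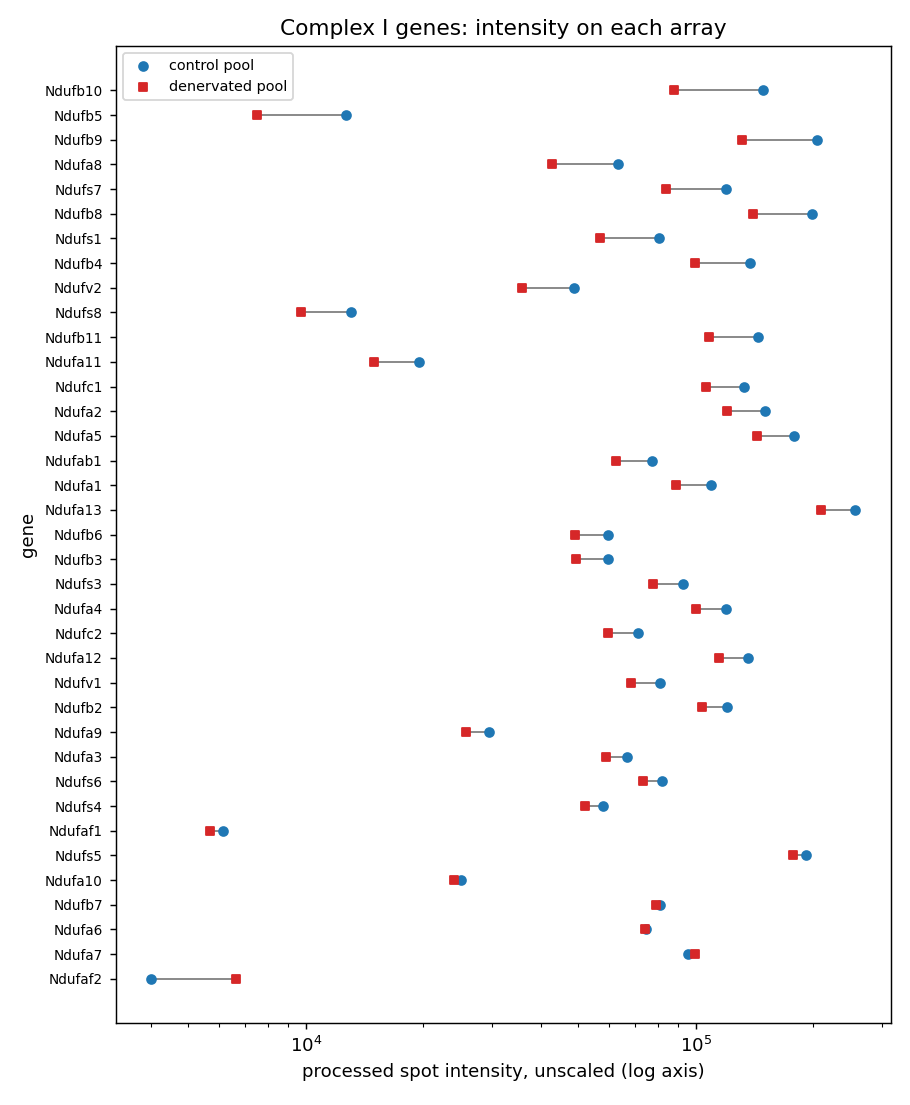
Processed spot intensity (log axis, unscaled) of 37 of the 38 complex I genes in the control pool (circles) and the denervated pool (squares), in the order of the scaled difference. The denervated value lies to the left in 35 genes and to the right in Ndufa7 and Ndufaf2; levels of different genes come from different probes and are not comparable.

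The 4 genes past 2-fold all encode supernumerary subunits of the membrane arm. Of the 38 members, 28 are supernumerary and 19 belong to the membrane arm. The share of 4 in 38 was near the background of 8.66%, and a pattern by arm was not tested. Ndufb10, an intermembrane-space-facing subunit of the distal membrane arm, had an intensity of 148674 in control and 87642 in denervated muscle. After scaling it was at 43.7% of control, a difference of -1.19 ± 0.20 (transcript NM_026684, probe on chromosome 17 at 24449674 to 24449733, mm8). Ndufb5, a single-pass membrane subunit of the same region, went from 12639 to 7474. Its difference was also -1.19 ± 0.20 (NM_025316, chromosome 3 at 32942863 to 32942922). These genes had the same difference to 2 decimals.

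Ndufb9, which anchors an acyl carrier protein at the far end of the membrane arm, had intensities of 204179 and 131712, a difference of -1.06 ± 0.20 (NM_023172, chromosome 15 at 58769500 to 58769559). Ndufa8, a twin cysteine-motif protein of the proximal membrane arm, had 63322 and 42680 and was at 49.9% of control after scaling (chromosome 2 at 35858343 to 35858399). Its second probe, which overlaps the first in position, gave a log2 difference of -1.05. Ndufa8 lies just inside the 2-fold limit and Ndufs7, at -0.95, just outside. Which genes passed it depended on the scaling. With the median of detected probes 8 did, among them the matrix-arm genes Ndufs1 and Ndufs7. Only 1 (Ndufb5) did with quantile or loess centring, and none with spike-in scaling.

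The 7 core subunits among the 38 genes, which carry out electron transfer, were all lower. Mitochondrially encoded subunits are described separately below and are not counted here. All 7 were measured and below 0, with a median of -0.86, against -0.71 for the 28 supernumerary ones. None of the 7 reached 2-fold, and the gap of 0.15 between the medians was not tested. Ndufs7, which holds the last iron-sulfur cluster before ubiquinone, went from 119638 to 83825 (-0.95 ± 0.20). Ndufs1, the large iron-sulfur subunit of the NADH-binding end, went from 80405 to 56893 (-0.93 ± 0.20). Both stood among the 7 lowest members.

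Ndufv1 binds NADH and the flavin, and Ndufv2 beside it carries a further iron-sulfur cluster. Ndufv2 had intensities of 48788 and 35929 (-0.87 ± 0.20), and Ndufv1 80746 and 68214 (-0.68 ± 0.20). Ndufs8, another iron-sulfur subunit, had 13034 and 9693 (-0.86 ± 0.20). The genes Ndufs8 and Ndufv1 have start sites 99981 bases apart on the minus strand of chromosome 19 (GRCm38.p6), and their differences were 0.18 apart, within error. Ndufs3, a core subunit of the quinone-binding region, was at -0.69.

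By arm, the 15 measured matrix-arm genes had a median of -0.68 and ranged from -0.95 to -0.37, and the 19 membrane-arm genes had a median of -0.73 and ranged from -1.19 to -0.47. The ranges overlapped broadly. The NADH-binding end (7 genes, -0.68) and the quinone-binding region (8 genes, -0.67) had nearly the same median. Within the membrane arm the 10 Ndufb genes of the distal part had a median of -0.87 and the 9 proximal genes -0.72. The Ndufb class also had the lowest median of the subunit classes with more than 2 genes, against -0.69 for Ndufa and -0.67 for Ndufs. With 1 array per group, these gaps between medians were not tested.

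**Figure D3:**
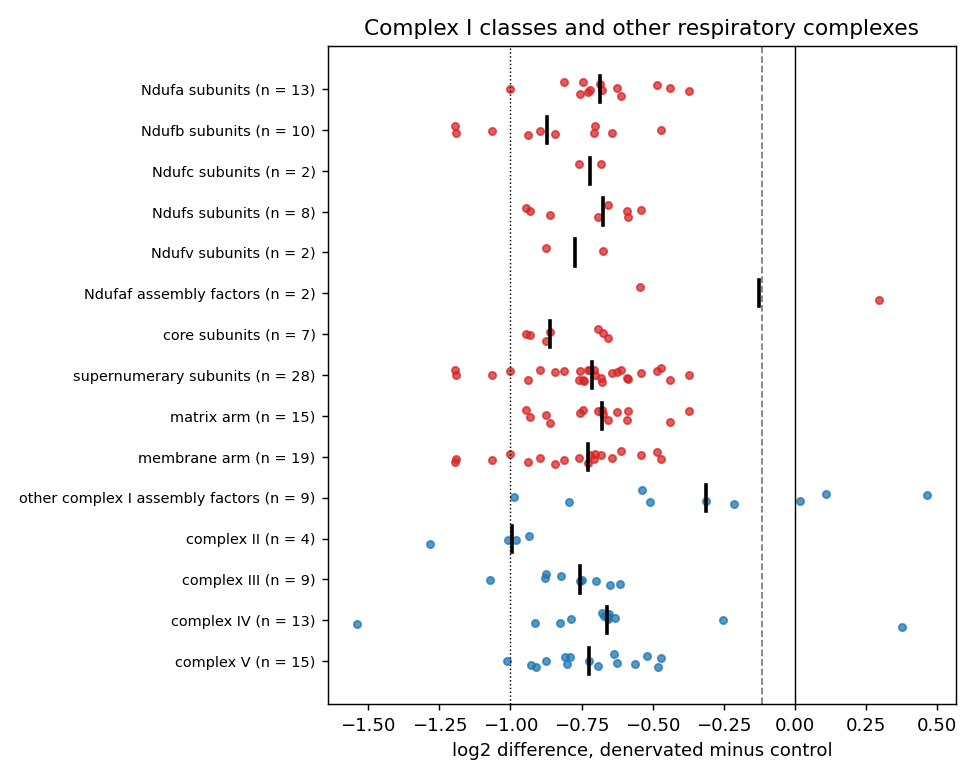
Log2 differences (denervated minus control) of single genes by complex I class and arm (upper rows) and for other assembly factors and complexes II to V (lower rows), with a bar at each median. Subunit classes overlap, with medians between -0.87 and -0.67, while the Ndufaf row holds 1 gene below 0 and 1 above; the dashed line is the median of all measured genes and the dotted line 2-fold lower.

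Among the other distal Ndufb genes, Ndufb8 was at -0.94 (199027 in control and 140229 in denervated muscle), Ndufb4 at -0.90, and the X-linked Ndufb11 at -0.84. Ndufb6 (-0.71), Ndufb3 (-0.70) and Ndufb2 (-0.64, from 120405 to 103971) lay near the group's median. Ndufb7, a twin cysteine-motif protein like Ndufa8, was the highest of its class, with intensities of 81007 and 78894 (-0.47 ± 0.20). The Ndufb class thus held both the lowest complex I gene and 1 of the 5 highest.

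Of the proximal membrane-arm genes, Ndufa11 was at -0.81, Ndufc1 at -0.76 (133070 and 106115), the X-linked Ndufa1 at -0.73, Ndufc2 at -0.68 and Ndufa3 at -0.61. Ndufa13, also known as GRIM-19, had intensities of 256335 and 209861 (-0.72 ± 0.20). Ndufs5, in spite of its name a membrane-arm protein, had 191749 and 177954 (-0.54 ± 0.20). Ndufa10, a relative of nucleoside kinases, had 24942 and 24050 (-0.48 ± 0.20). Together with Ndufa8, described above, these are the 9 proximal genes, and Ndufa8 and Ndufa10 are their extremes.

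The subunits with differences nearest to 0, Ndufa7 and Ndufa6, belonged to the matrix arm. Next came the membrane-arm genes Ndufb7 (-0.47), Ndufa10 (-0.48) and Ndufs5 (-0.54). Ndufa7 had intensities of 95629 and 99580 (-0.37 ± 0.20, second probe -0.46). It was above 0 with spike-in scaling (0.01) and without scaling (0.06), so its direction is not settled. Ndufa6, a partner of an acyl carrier protein in the matrix arm, had 74478 and 74202 (-0.44 ± 0.20). Of the remaining matrix-arm genes, Ndufa2 was at -0.75, Ndufa5 at -0.74, Ndufa12 at -0.68, the short-chain dehydrogenase relative Ndufa9 at -0.63, Ndufs6 at -0.59 and Ndufs4 at -0.59. Ndufab1, the mitochondrial acyl carrier protein found in both arms, was at -0.74, with 77245 and 62406. Ndufa4, named as a complex I subunit but now placed in complex IV, had 119554 and 100222 (-0.69 ± 0.20), and leaving it out kept the group's median at -0.71.

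Of the assembly factors, Ndufaf1 lay within the range of the subunits and Ndufaf2 above it. Ndufaf2 takes the place of its relative Ndufa12 in a late assembly intermediate. Its intensity was 4003 in control and 6620 in denervated muscle, a difference of 0.29 ± 0.20 (probe on chromosome 13 at 109173568 to 109173627, mm8). Ndufa12 itself went from 135879 to 114553 (-0.68 ± 0.20). Ndufaf1, a member of the membrane-arm assembly complex, had 6147 and 5690 (-0.54 ± 0.20), 0.84 below Ndufaf2. Ndufaf2 was above 0 in every setting tried, from 0.17 to 0.73.

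Further Nduf genes stood on the array under clone names and are outside the 38. All 6 that a RefSeq accession or synonym identified were below 0 (57.4% of all measured genes), with a median of -0.85. Ndufaf5, which hydroxylates Ndufs7, had 4028 in control and 2313 in denervated muscle (-1.23 ± 0.20), lower than any of the 38. Ndufv3 was at -1.04 and Ndufaf6 at -1.02, while Ndufaf4 (-0.67), Ndufaf3 (-0.58) and Ndufaf7 (-0.21) were less far from 0. The dim Ndufv3 probes gave -0.54 and -0.43. With these 6 genes added to the 38, 7 were at least 2-fold lower, against 8.66% of all measured genes. The assembly factors' median became -0.58. Ndufb1 and Ndufa4l2 were not analysed here.

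Of 9 complex I assembly factors without an Nduf name, none was 2-fold lower or higher (8.66% and 6.87% of all measured genes). Of the 9, 6 were below 0, against 57.4% of all measured genes, and the median was -0.31. Tmem126a (-0.99 ± 0.20) and Ecsit (-0.79 ± 0.20), which works with Ndufaf1, were the lowest. Nubpl, which delivers iron-sulfur clusters to complex I (0.46 ± 0.20, other probes down to -0.12), and Timmdc1 (0.11 ± 0.20) were the highest. Of the mitochondrially encoded subunits only a probe named ND4L was read, with 115847 in control and 127069 in denervated muscle (-0.30 ± 0.20). Its unscaled intensity was higher in the denervated pool, so its direction is not settled.

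The subunits of complexes III, IV and V had medians near that of complex I, and those of complex II a lower one. The medians were -0.99 for 4 complex II genes, -0.76 for 9 of complex III, -0.66 for 13 of complex IV and -0.72 for 15 of complex V, against -0.71 for the 38 complex I genes. Sdhb (-1.28) and Sdha (-1.01) were the lowest of complex II, and Sdhd (-0.98) and Sdhc (-0.94) the others. Uqcrc1 (-1.07) and Cyc1 (-0.88) were lowest in complex III and Uqcrq (-0.65) and Uqcrb (-0.62) highest. Cox7a1 (-1.54) and Cox8b (-0.91) were lowest in complex IV and Cox6a1 (-0.25) and Cox8a (0.37) highest. Complex V ran from Atp5k (-1.01) and Atp5g1 (-0.93) to Atp5g2 (-0.48) and Atp5l (-0.47). With 1 array per group, differences between the complexes could not be tested, and the complex I range lay inside that of complex IV.

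Of 11 regulators of mitochondrial genes, 4 were at least 2-fold lower (8.66% of all measured genes) and none was 2-fold higher (6.87%). Their median was -0.49. The 4 were Perm1 (-5.86), the coactivators Ppargc1a (-2.02) and Ppargc1b (-1.60), and the orphan receptor Esrra (-1.44). Another Ppargc1b probe gave -0.85, short of 2-fold. Esrrg was at -0.80, the mitochondrial transcription factor Tfam at -0.49, Esrrb at -0.35 and Gabpa at -0.21, with another Gabpa probe at 0.44. Nrf1 lay about 1 error from 0 (0.22 ± 0.21), with Pprc1 at 0.62 and the corepressor Nrip1 at 0.83, although another Nrip1 probe gave -1.24. Yy1 is not on the list and was looked up after the other values had been seen. It was at -0.47.

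Motif matches were counted in 300-base windows from 250 bases before to 50 after the start site, on both strands, for the 34 members with a RefSeq promoter. Ndufb9, Ndufs1 and Ndufa2 were among those not matched. The NRF1 motif (GCGCA, any base, then GCGC) was present in 7 members (20.6%), against 9.37% of the promoters of 11470 measured genes and 4.78% of all 27025 promoters. The YY1 motif AAGATGGCG was present in 5 (14.7%), against 2.85% and 1.49%. All 5 matches read in the gene's direction and began 23 to 36 bases after the start site. The CCAAT motif was present in 11 (32.4%, against 38.4% of measured genes) and TATAAA in 4 (11.8%, against 8.91%), and neither is in capitals above. The GABP motif CCGGAAG was present in 5 (14.7%), close to the 16.1% of measured genes, and the ERR motif TNAAGGTCA in Ndufb4 only (2.94% against 0.767%). Median GC content was 59%, against 60% in measured genes.

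Members with and without a motif had similar differences. The median was -0.74 with the NRF1 motif and -0.69 without, -0.63 with the YY1 motif and -0.70 without, and -0.69 with the GABP motif and -0.70 without. At least 1 of the NRF1, YY1, GABP and ERR motifs was found in 16 of 34 members (47.1%), against 26.2% of measured genes. Ndufb10 and Ndufaf2, whose sequences are printed above, hold none of these 4 in the printed stretch. A match is a description of the letters, not evidence of binding. The members lie on 15 chromosomes, so they do not form 1 genomic cluster.

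**Figure D4:**
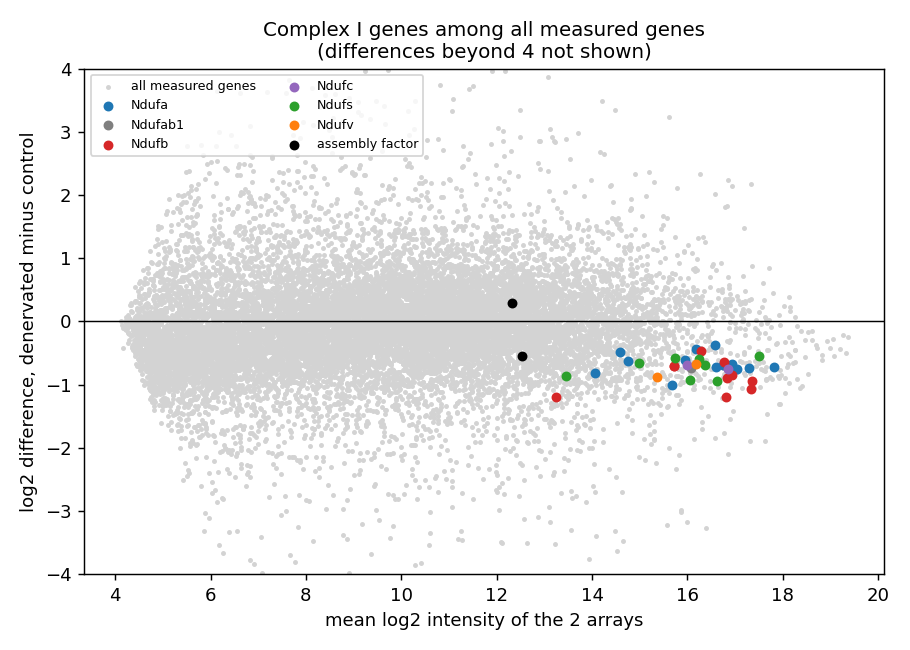
Log2 difference (denervated minus control) against the mean log2 intensity of both arrays for all 15655 measured genes (grey) and the complex I genes (colours by class). The complex I genes form a narrow band below 0 at the bright end, apart from the dimmer assembly factors.

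Brightness was looked at because 35 of the 38 genes had a mean intensity over 10000. Those 35 had a median of -0.71 and all were below 0. The 1974 measured genes over that intensity had a median of -0.08, with 54.8% below 0. Of them 9.37% were 2-fold lower or beyond, and 6.48% were 2-fold higher or beyond. Of the 35 members, 3 were at least 2-fold lower. When differences were centred along intensity with loess, the members' median was -0.52 and 37 were still below 0. Across the 38 genes the difference and the mean intensity had a Spearman correlation of -0.21, from 1 pair of arrays that all points share.

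Several probes of a gene gave a limited check within these arrays. Of the 56 probes, 53 were measured, and 11 genes had more than 1 measured probe. In the 7 genes with at least 2 probes over an intensity of 10000, such probes differed by at most 0.15, and by a median of 0.09. For Ndufa1 they gave -0.73 and -0.58, for Ndufa11 -0.81 and -0.83, for Ndufa12 -0.68, -0.74 and -0.77, and for Ndufs6 -0.59, -0.67 and -0.71. Bright probes of a gene thus lay within technical error of each other. In Ndufa8, Ndufa11, Ndufa12 and Ndufs6 some of these probes overlap in position, so their closeness is partly built in.

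Dim probes did not follow the bright ones as closely. A Ndufab1 probe with a control intensity of 559 gave 0.05 where the bright one gave -0.74, and another gave -0.47. For Ndufb8 the dim probe gave -0.20 against -0.94, for Ndufc1 -1.34 against -0.76, for Ndufb2 -1.19 against -0.64 and for Ndufa3 -0.42 against -0.61. A dim Ndufs4 probe passed the background test in control muscle (63.3) but not in denervated muscle (13.9). The second probe of Ndufs1 and another of Ndufab1 passed it in neither. The probes used for 10 genes span an intron in the genome and so read joined exons. Their median was -0.69, against -0.71 for the other 28.

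**Figure D5:**
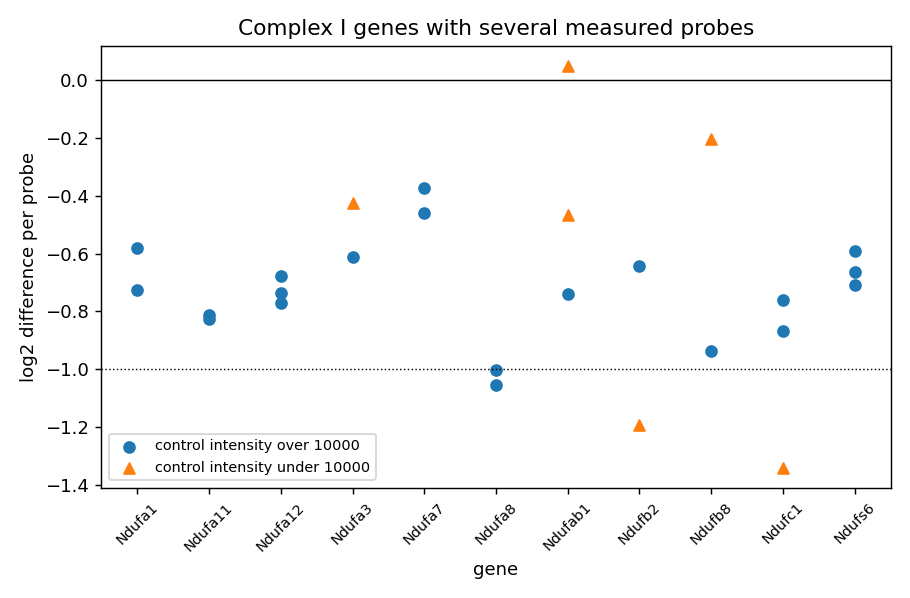
Log2 difference (denervated minus control) of every measured probe for the 11 complex I genes with more than 1, with circles for probes over a control intensity of 10000 triangles for dimmer ones and a dotted line at 2-fold lower. Circles of one gene lie close together, while the triangles of Ndufab1, Ndufb8, Ndufb2 and Ndufc1 stand away from them.

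Copies of these genes also limit single values. RefSeq lists Ndufab1-ps, Ndufs5-ps, Ndufs6b, Ndufa12-ps, Ndufa11b, Ndufb4b and Ndufb4c beside the genes they resemble, and the files do not tell whether a probe also binds such a copy.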

How the data were processed

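Total RNA of 6 mice per group was pooled, and each pool was read on 1 single-colour Agilent array. The deposited intensity values are processed spot signals. The submitters' processing notes name Feature Extraction 9.5, and the headers give 9.5.3.1. That software subtracted background within each array, per the file headers. The authors' deposited table, a whole-number score, equals the processed intensity divided by its array's 75th percentile times 100; its column medians were 10 and 9, and it served as an alternative.

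Spots marked as outliers were left out (87 and 81), spots of a probe were averaged as log2, and the 75th percentile was subtracted. Of 41174 probes, 70.9% and 68.4% were well above background. Names came from RefSeq accessions (23374 probes), then unique synonyms (2919), then the file (9242), leaving 5639 unnamed. Replicated spots of 173 probes had a median SD of 0.06 for the log2 difference. With 1 array per group no test was made, and 2-fold was the threshold. Every member is named except 1, which is not reported here by name but is in the counts and medians; of each comparison list, the 2 lowest and 2 highest members and every regulator. Members and lists were chosen with earlier results of these data known. Normexp used limma 3.58.1 in R 4.3.3. Probe positions are on mm8, as the files give them. The background of genes over an intensity of 10000 was added after seeing the data.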

Additional observations from a re-analysis of the deposited data

How the results depend on the processing

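Each result was recomputed under 13 alternatives, and under 2 chosen after seeing the data (members by RefSeq symbol, and without Ndufa4). The number of members below 0 was 36 or 37 of 38 throughout the 13; using the probe with the smallest difference gave 36, with Ndufab1 at 0.05. The number at least 2-fold lower was 4, but 8 with the median of detected probes, 3 with the deposited table (without Ndufa8), 2 with normexp, 1 with quantile or loess, 0 with spike-in or no scaling, and 7 with members by RefSeq symbol, where the assembly factors' median was -0.58. With spike-in scaling the medians were -0.32 for all members, -0.30 for Ndufa, -0.48 for Ndufb, -0.33 for Ndufc, -0.29 for Ndufs, -0.39 for Ndufv and 0.26 for assembly factors. Those of complexes II, III, IV and V were -0.61, -0.37, -0.27 and -0.34. Without scaling the same medians were -0.27, -0.25, -0.44, -0.29, -0.24, -0.34 and 0.31, and -0.56, -0.32, -0.23 and -0.29. Both shift every gene alike. Quantile scaling gave -0.47 for Ndufa, -0.63 for Ndufb, -0.41 for complex IV and -0.45 for complex V. Loess centring gave -0.47, -0.65, -0.45 and -0.45, and -0.55 for complex III. The membrane arm's median stayed below the matrix arm's by 0.03 to 0.05 in the 13 alternatives. Those using the median of detected probes, spike-ins or no scaling shift every gene alike and could not change this gap. Pooling hides the spread between mice, and dim probes carry the least reliable values. No paired analysis was possible because each group has 1 array.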
